A study of Homo sapiens with 6 samples.

Results

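The mitochondrial ribosomal protein genes were taken as the protein-coding genes whose symbol is MRPL or MRPS followed by a number. This rule found 77 of the 26347 gene rows in the table, 49 named for the large subunit (MRPL) and 28 for the small subunit (MRPS). All 77 had enough counts to be tested. The other 8 rows with such a symbol were antisense, divergent or pseudogene transcripts and were left out. RNA was sequenced from THP-1, a cell line established from a human monocytic leukaemia, collected 24 h after transfection. One group of 3 libraries received a miR-125a-5p mimic, a synthetic copy of that microRNA, and the other 3 received a negative control microRNA mimic. Both groups were grown in the same serum-containing medium and were transfected, so no library shows untransfected cells. The study's title speaks of macrophages, whereas the sample labels name a monocytic line and no differentiation step. Nothing in the labels says whether the 3 transfections of a group used separate cultures, so each p-value measures only the spread between these libraries.

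The mitochondrial ribosome translates the few messenger RNAs encoded by mitochondrial DNA, which specify core subunits of the respiratory chain and of ATP synthase. Its RNA is made inside the mitochondrion, but all of its proteins are encoded in the nucleus, made in the cytosol and imported. The small subunit decodes the messenger RNA, and the large subunit joins the amino acids. Some of the proteins have bacterial counterparts and others occur only in mitochondria. In structures of the human particle MRPS18A and MRPS30 sit in the large subunit despite their names. The counts below follow the symbols.

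Depth was 8256149 to 9356861 counts in the miR-125a-5p libraries and 8423228 to 10257791 in the control libraries. The 77 genes took 0.233% to 0.240% of the counts with miR-125a-5p and 0.223% to 0.256% with the control mimic. Control library 1 stood apart from the others. It lay at -38.2 on the first principal component, which held 25.03% of the variance, and the other 5 libraries lay between 1.14 and 16.3. Medians, sums and the changes of several members move without it, and such values are given beside the results below. All 10 monocytic marker genes had counts, with summed levels of 2514 to 2603 CPM in miR-125a-5p libraries and 2568 to 2727 CPM in control libraries. For these marker sums CPM are counts per 1000000 of a library's total. All other CPM are counts per 1000000, with library sizes adjusted by trimmed mean of M-values. The marker lists of T cells, B cells, erythroid cells, fibroblasts and epithelial cells each summed to at most 5.09 CPM in any library, and CD3E, the 4 erythroid genes, KRT18 and KRT19 had 0 counts. In bulk RNA, fewer cells of a kind and less RNA per cell cannot be told apart.

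The mature sequence of miR-125a-5p is shown because its seed, bases 2 to 8 in capitals, sets which 3′ untranslated regions (3′ UTRs) of the members hold a matching site. RefSeq places it in MIR125A on GRCh38.p14 at chr19:51693268-51693291, plus strand.
miR-125a-5p: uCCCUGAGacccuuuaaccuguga

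Sites that pair with at least 7 seed bases, or with 6 and an A opposite base 1, were present in 6 of the 77 members, or 7.79%, against 24.3% of the 12796 tested genes searched. The longest 3′ UTR of each gene in GENCODE 29 was used. These 6 stretches are shown because they are the members' closest matches to the mimic's seed. Each is 30 bases on the strand of the transcript, on GRCh38, and capitals mark the match to the seed. The 8mer is CTCAGGGA, the 7mer-m8 CTCAGGG and the 7mer-A1 TCAGGGA, and each gene is counted under its longest match. The stretches lie in the last exon of MRPL11 (8mer, chr11:66435804-66435811, minus strand), MRPL30 (8mer, chr2:99197118-99197125, plus strand), MRPL43 (8mer, chr10:100978601-100978608, minus strand) and MRPS10 (8mer, chr6:42208278-42208285, minus strand). The others lie in the last exon of MRPL10 (7mer-m8, chr17:47823405-47823411, minus strand) and MRPL22 (7mer-A1, chr5:154968345-154968351, plus strand).
MRPL11: tatcttgggacCTCAGGGAagggaaccagt
MRPL30: ggcggaaatctCTCAGGGAgaattatttcc
MRPL43: tctcctcagttCTCAGGGAgtgtgggtggc
MRPS10: agcCTCAGGGAggccatttttgcctaaatt
MRPL10: ctaaacttactCTCAGGGgcttctctgtca
MRPL22: gtagcatggagTCAGGGAaataacactgga

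The members have short 3′ UTRs, with a median of 479 bases against 1369 bases over tested protein-coding genes, and short coding sequences, with medians of 603 and 1437 bases. Median exon GC content was close, at 47.7% in the members and 47.9% over tested protein-coding genes. A match of 6 bases or more was found in 13 members (16.9%) and in 37.3% of the genes searched. In the shortest annotated 3′ UTR of each gene, a site of at least 7 bases was found in 1 member (1.30%), against 10.1% of the genes searched. That member was MRPS10, whose site begins at base 4 of the 3′ UTR. The site of MRPL43 is in 1 of its 11 annotated 3′ UTRs.

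Counts of mitochondrial ribosomal protein genes were close between miR-125a-5p and control libraries. None of the 77 passed an adjusted p of 0.05 in edgeR's quasi-likelihood test, against 4 of all 14731 tested genes (0.0272%), all 4 lower with miR-125a-5p. DESeq2, limma voom and edgeR's likelihood ratio test also called 0 members. At an unadjusted p under 0.05 there were 2 members (2.6%), against 5.92% of all tested genes. They were MRPS35 with a positive change, where the background was 2.69%, and MRPL44 with a negative one, where it was 3.22%. The median log2 fold change, miR-125a-5p over control, was -0.0022 over the members and 0.0011 over all tested genes. It was positive in 38 members and negative in 39. The members' changes were also small in size, with 40 of 77 (51.9%) within 0.1 on the log2 scale and 62 (80.5%) within 0.2. Over all tested genes the shares were 40.8% and 67.9%. The median SE of a member's log2 fold change was 0.163, so most of these differences are smaller than their own error. The share within a given size was not tested, and it depends on how precisely each gene was counted.

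**Figure D1:**
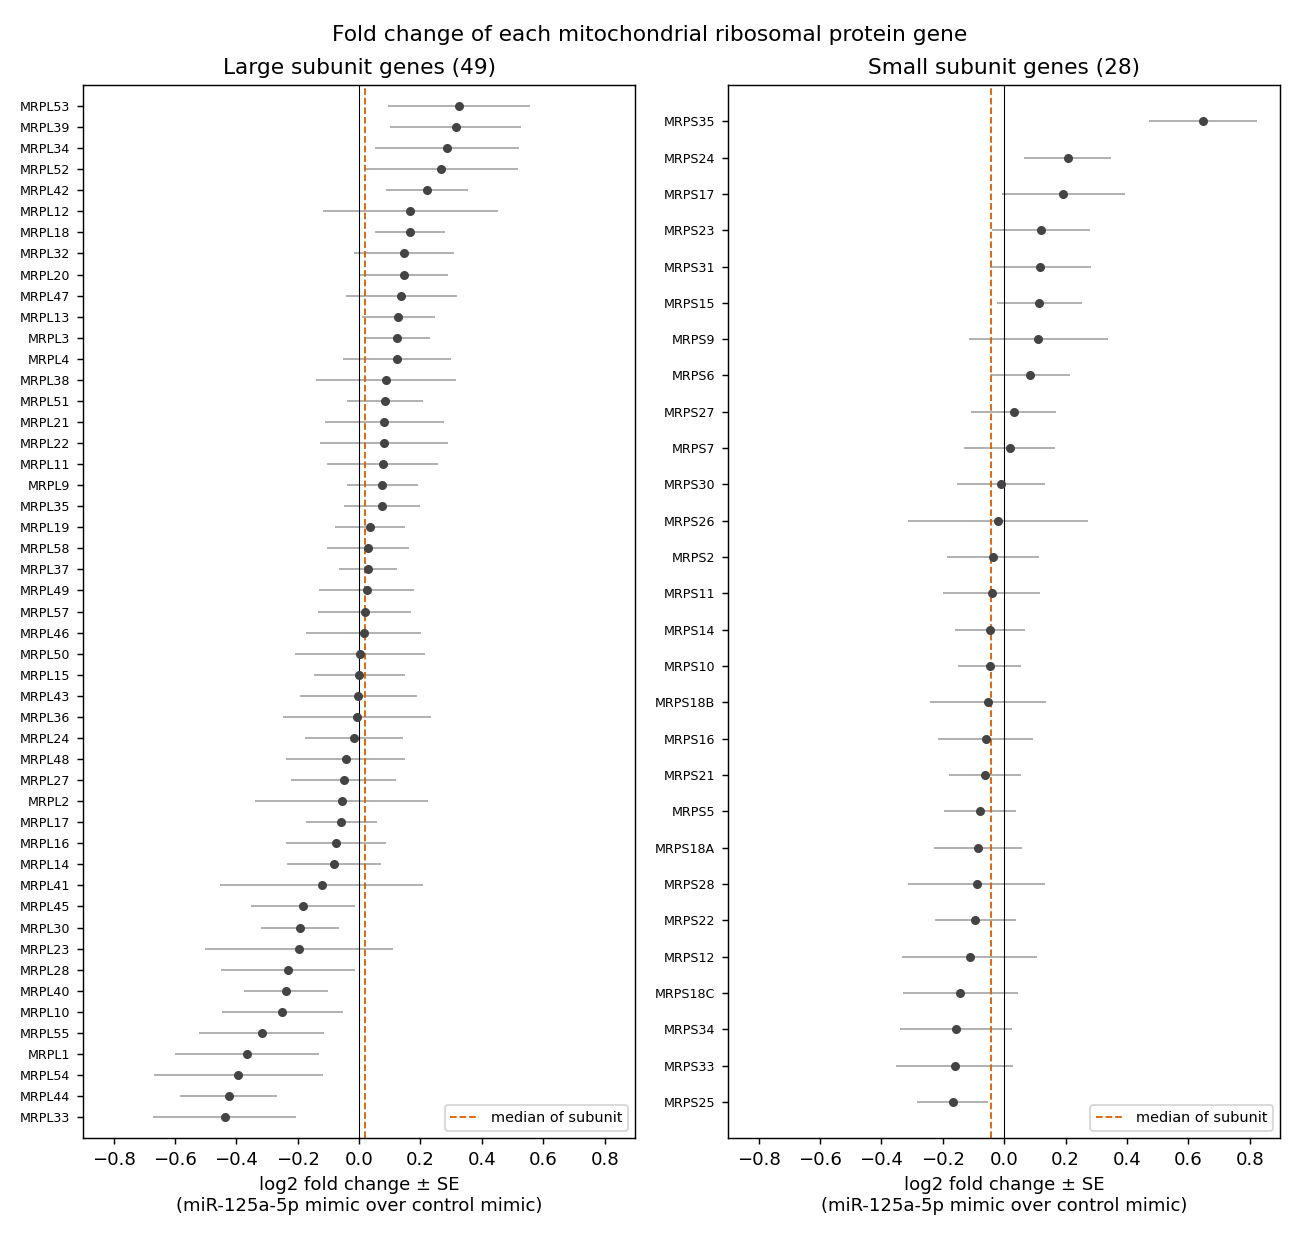
Log2 fold change (miR-125a-5p mimic over control mimic) with its SE for the 49 large and 28 small subunit genes, from 3 libraries per group. Dashed lines mark the median of each subunit, 0.019 and -0.044, and only MRPS35 lies beyond 0.5.

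The large and small subunit genes had nearly the same median change. The median log2 fold change was 0.019 over the 49 large subunit genes, of which 28 were positive, and -0.044 over the 28 small subunit genes, of which 10 were positive. The difference of the medians, large minus small, was 0.062. Without control library 1 the small subunit median was 0.044 and the difference was 0.0010, so the sign of the small subunit median changed with that library. Without miR-125a-5p library 3 the small subunit median was -0.014 and the difference was 0.015, so the size of the gap rests on more than 1 library. Counting MRPS18A and MRPS30 with the large subunit gave a difference of 0.059.

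The summed levels show the same. Large subunit genes summed to 1507, 1477 and 1472 CPM in miR-125a-5p libraries 1, 2 and 3, against 1614, 1392 and 1377 CPM in control libraries 1, 2 and 3. Small subunit genes summed to 897, 892 and 875 CPM in the miR-125a-5p libraries, against 960, 859 and 849 CPM in the control libraries. In both sums control library 1 was the highest of all 6 and the other control libraries were the lowest, so the groups overlapped. All members together reached 2373 ± 28.98 CPM with miR-125a-5p and 2350 ± 194 CPM with the control mimic (SD, n = 3 each). Without control library 1 the control mean was 2239 CPM. The log2 ratio of the sums was 0.014 with all libraries, 0.081 without control library 1 and -0.024 without control library 3.

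By summed counts, the balance of the subunits was steady across libraries. Large subunit counts were 1.68, 1.65 and 1.68 times the small subunit counts in miR-125a-5p libraries, against 1.68, 1.62 and 1.62 times in control libraries. Control library 1 matched the miR-125a-5p libraries in this ratio, although its sums were the highest. It held the highest value of a member for 34 of the 77 (44.2%), compared with 21.3% of all tested genes. Of these 34, 22 encode large and 12 small subunit proteins. In that library the members were above their own means by a median of 0.124 on the log2 scale, the cytosolic ribosomal protein genes by 0.085 and all tested genes by 0.0063. In miR-125a-5p library 2 the cytosolic genes were higher still, at 0.109, and the members were at 0.021. The part of control library 1 in the small differences between groups was not tested beyond leaving it out. With it left out, 48 of 77 members had a positive fold change, 6 had an unadjusted p under 0.05 with a positive change and 2 with a negative one, and 0 passed the adjusted threshold. These 8 are 10.4% of the members, against 6.36% of all 15022 genes tested in that fit. By direction the shares of all genes were 3.32% with a positive change and 3.05% with a negative one. The median log2 fold change in that fit was 0.045 over the members and 0.0020 over all tested genes.

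**Figure D2:**
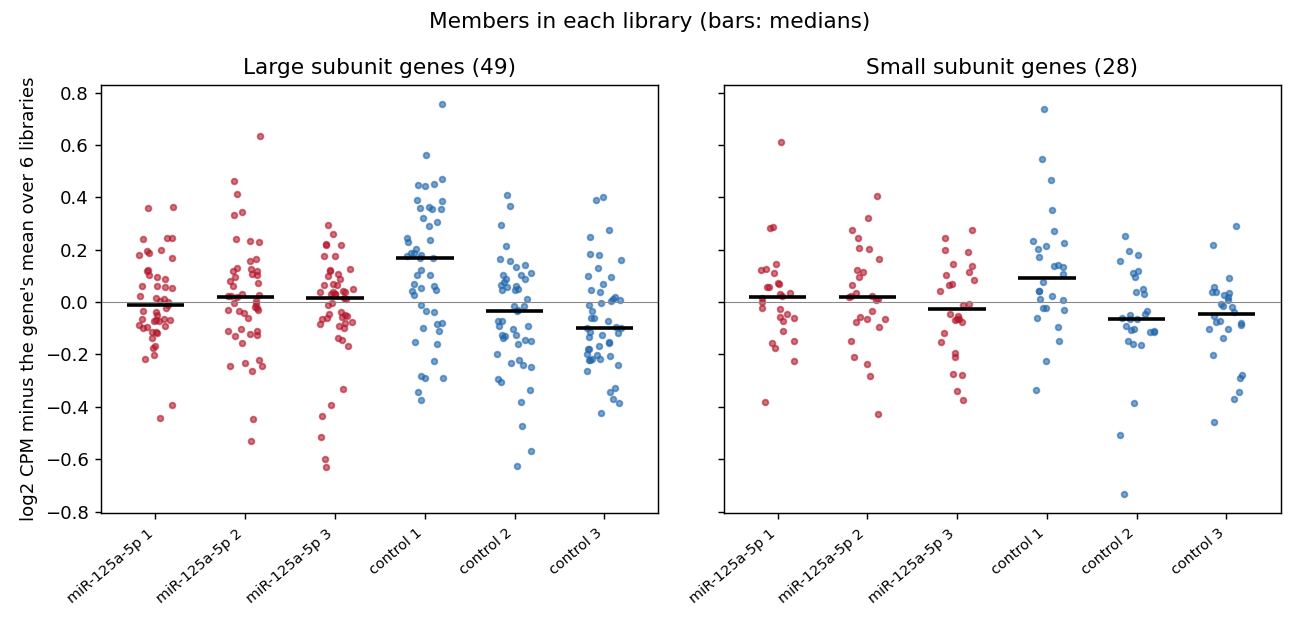
Log2 CPM of each member minus its mean over the 6 libraries, for the 3 miR-125a-5p libraries and the 3 control libraries, with bars at the medians. The medians of control library 1 are 0.168 for large and 0.092 for small subunit genes, above those of the other 5 libraries.

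MRPS35, a small subunit protein with no bacterial counterpart, had the smallest p of any member. It had 40.3, 32.9 and 27.7 CPM in miR-125a-5p libraries, against 26.5, 15.9 and 21.8 CPM in control libraries. All 3 miR-125a-5p libraries were above all 3 control libraries, the closest pair being miR-125a-5p library 3 and control library 1. The means were 33.6 ± 6.34 CPM with miR-125a-5p and 21.4 ± 5.32 CPM with the control mimic (SD, n = 3 each), and the log2 fold change was 0.65 ± 0.17 (SE) with an adjusted p of 0.387 in edgeR's quasi-likelihood test. It passed the threshold in 1 of the alternatives, with no filter on low counts (adjusted p = 0.0247), and the adjusted p ranged up to 0.937 over the others. Leaving out 1 library at a time gave log2 fold changes between 0.48 and 0.83. Its longest 3′ UTR holds no match of 6 bases or more.

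MRPL44, a large subunit protein with a ribonuclease III-like fold, was the member with the smallest p among negative changes. It had 16.4, 20.4 and 21.2 CPM in miR-125a-5p libraries, against 27.9, 23.6 and 26.5 CPM in control libraries. The groups did not overlap. The means were 19.4 ± 2.55 CPM with miR-125a-5p and 25.98 ± 2.20 CPM with the control mimic (SD, n = 3 each), with a log2 fold change of -0.43 ± 0.16 (SE) and an adjusted p of 0.670 in the same test. With each library left out in turn it stayed between -0.50 and -0.32, with 0 calls.

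Groups that did not overlap were found for 5 of the 77 members (6.49%), against 11.2% of all tested genes. MRPS35 and MRPL32 were higher in every miR-125a-5p library than in any control library, which is 2.6% of the members against 5.31% of tested genes, and MRPL44, MRPL45 and MRPL54 were lower in every one, 3.9% against 5.9%. The separation was narrow for MRPL32, a protein that is cut by a mitochondrial protease before it joins the large subunit. It had 20.6, 19.7 and 19.4 CPM with miR-125a-5p, against 19.2, 17.2 and 17.5 CPM with the control mimic. MRPL45, which lies at the exit of the peptide tunnel near the inner membrane, had 16.0, 15.3 and 15.8 CPM with miR-125a-5p, against 17.6, 18.4 and 17.6 CPM with the control mimic. Its libraries were close within each group, and its log2 fold change was -0.18 ± 0.17 (SE). MRPL54 had few counts, at 5.99, 5.87 and 3.95 CPM with miR-125a-5p against 7.07, 7.34 and 6.41 CPM with the control mimic.

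**Figure D3:**
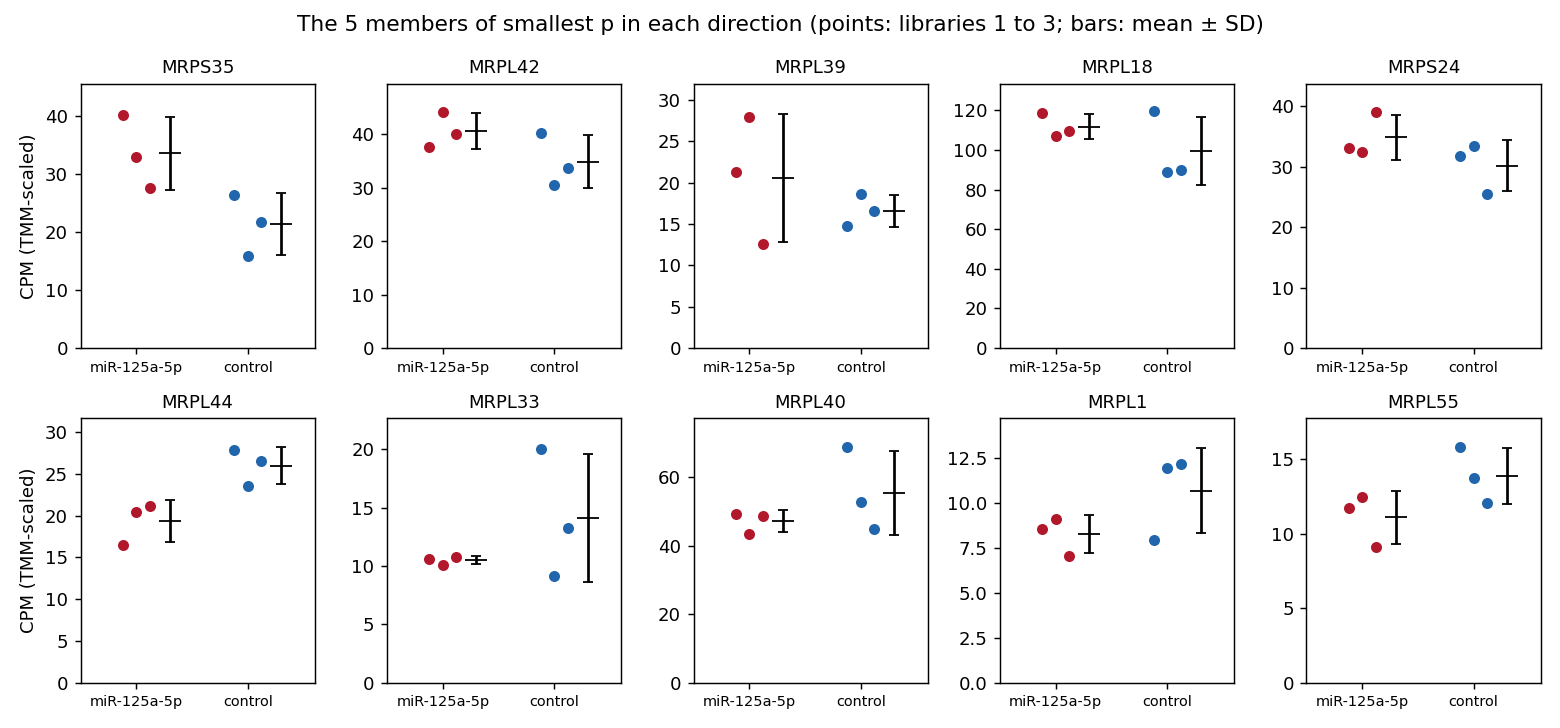
CPM in each library (points, replicates 1 to 3 from left to right) and mean ± SD for the 5 members of smallest p with a positive change (top) and the 5 with a negative change (bottom), miR-125a-5p left of control. In MRPS35 and MRPL44 the points of the 2 groups do not overlap, and in the other 8 members they do.

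The other members of smallest p each had groups that overlapped. MRPL42 had 37.6, 44.2 and 40.1 CPM with miR-125a-5p and 40.2, 30.5 and 33.7 CPM with the control mimic. MRPL18, of the protein family that binds the small ribosomal RNA in bacterial large subunits, had 119, 107 and 110 CPM with miR-125a-5p and 120, 88.9 and 90.1 CPM with the control mimic. In both genes control library 1 lay among or just above the miR-125a-5p libraries and control libraries 2 and 3 lay below it. The log2 fold change was 0.22 for MRPL42 and 0.17 for MRPL18, and without control library 1 it was 0.34 and 0.32. MRPS24, a small subunit protein near the messenger RNA entry, had 33.0, 32.4 and 39.0 CPM with miR-125a-5p and 31.7, 33.4 and 25.4 CPM with the control mimic. MRPL39, found only in mitochondrial ribosomes, had 21.3, 27.9 and 12.6 CPM with miR-125a-5p and 14.7, 18.6 and 16.6 CPM with the control mimic. Its miR-125a-5p libraries included both the highest and the lowest value of the 6, and its log2 fold change of 0.31 became 0.027 without miR-125a-5p library 2 and 0.57 without miR-125a-5p library 3.

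On the negative side, MRPL33 had 10.6, 10.1 and 10.8 CPM with miR-125a-5p and 20.02, 9.12 and 13.3 CPM with the control mimic. Control library 1 was far above the other 5 libraries, and the log2 fold change of -0.44 was -0.099 without it. MRPL40, a mitochondrion-specific large subunit protein, had 49.3, 43.4 and 48.5 CPM with miR-125a-5p and 68.8, 52.7 and 44.7 CPM with the control mimic, and its log2 fold change of -0.24 was -0.052 without control library 1. MRPL1, which forms a mobile stalk beside the exit site for transfer RNA, had 8.57, 9.13 and 7.07 CPM with miR-125a-5p and 7.95, 11.96 and 12.2 CPM with the control mimic. Here control library 1 was the low one of its group, and the log2 fold change was -0.37 with it and -0.55 without it. MRPL55 had 11.7, 12.5 and 9.10 CPM with miR-125a-5p and 15.8, 13.7 and 12.04 CPM with the control mimic, so 1 miR-125a-5p library lay above the lowest control library. Its log2 fold change was -0.32, and -0.20 without miR-125a-5p library 3. The adjusted p of these 4 and of the 4 above was between 0.859 and 0.898.

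Members with a seed site had small differences of either sign. Of the 6 with a site of at least 7 bases, 4 had a negative log2 fold change, with a median of -0.025, and the 64 members without any match had a median of 0.0091. Over all genes searched the medians were -0.029 with such a site and 0.015 with no match. Without control library 1, 2 of the 6 were negative and their median was 0.0096, with 0.055 for the 64 without a match, so the sign over the 6 rests on that library. Without control library 3 all 6 were negative, with a median of -0.080. Without miR-125a-5p library 2 the medians were -0.011 with a site and -0.012 without a match, so the order of the medians changed. MRPS10, whose counterpart in bacteria lies in the head of the small subunit, had 87.7, 88.3 and 96.5 CPM with miR-125a-5p and 101, 89.2 and 90.9 CPM with the control mimic. MRPL30 had 53.4, 44.8 and 51.6 CPM with miR-125a-5p and 67.8, 50.4 and 52.7 CPM with the control mimic. In each, control library 1 was the highest and the groups overlapped. The log2 fold change of MRPL30 was -0.19, and -0.050 without control library 1. MRPL11, at the site where translation factors bind, had 14.8, 15.8 and 18.4 CPM with miR-125a-5p and 16.3, 16.6 and 13.6 CPM with the control mimic. MRPL10, the base of the stalk that carries MRPL12, had 24.0, 16.8 and 16.0 CPM with miR-125a-5p and 29.8, 20.01 and 17.6 CPM with the control mimic. The log2 fold change of MRPL10, -0.25, was 0.0097 without control library 1. MRPL43 and MRPL22, a protein that lines the peptide tunnel, had log2 fold changes of -0.0022 and 0.081, with SEs of 0.19 and 0.21. That of MRPL22 ranged from -0.090 without control library 3 to 0.33 without control library 1.

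For members named for a role or a family, the group means lay within the larger SD of each other. MRPL12, which also binds the mitochondrial RNA polymerase, averaged 6.12 ± 1.54 CPM with miR-125a-5p and 5.45 ± 0.271 CPM with the control mimic. Its log2 fold change was 0.17 ± 0.29 (SE), and 0.033 to 0.36 with 1 library left out at a time. MRPL58 is a peptide release enzyme that frees stalled ribosomes, and it averaged 38.7 ± 1.82 CPM with miR-125a-5p and 37.9 ± 5.96 CPM with the control mimic. MRPS12, the decoding-site protein whose bacterial counterpart carries streptomycin resistance mutations, averaged 12.2 ± 1.18 CPM with miR-125a-5p and 13.1 ± 4.36 CPM with the control mimic. Its control libraries were at 18.2, 11.1 and 10.2 CPM, so its log2 fold change was -0.11 with control library 1 and 0.20 without it. The 3 members of the MRPS18 family, which occupy different places in the particle, had 29.3 ± 3.91 CPM (MRPS18A), 14.5 ± 2.70 CPM (MRPS18B) and 18.8 ± 2.46 CPM (MRPS18C) with miR-125a-5p. With the control mimic they had 31.1 ± 2.08, 15.1 ± 0.874 and 20.7 ± 5.42 CPM, in the order A, B, C (SD, n = 3 for each mean). Their transcripts hardly overlap in sequence. MRPS18A shared 0 runs of 25 bases with the other 2, and MRPS18B and MRPS18C shared 19. Matches to annotated pseudogenes were counted as positions of 25 bases, summed over the transcripts of a pseudogene. MRPL3, MRPL45 and MRPS10 had up to 397, 350 and 174 such positions in a pseudogene. MRPL10, MRPS18C, MRPL36, MRPL35 and MRPS31 had up to 154, 150, 123, 108 and 101. Some counts of these members could belong to those pseudogenes. Whether each is a copy of the member or only shares a repeat was not examined.

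Levels were compared between genes only per exon length, as counts per base of annotated exon scaled to sum to 1000000 in each library. On this scale the median member stood at 28.7 with miR-125a-5p and 30.1 with the control mimic, and the median of all tested genes at 18.7 with miR-125a-5p and 18.8 with the control mimic. MRPL18 was the highest member, at 304 ± 19.8 with miR-125a-5p and 269 ± 36.0 with the control mimic (SD, n = 3 each). It was followed by MRPL37, at 212 ± 9.82 with miR-125a-5p and 208 ± 10.6 with the control mimic. MRPL3, which lies near the peptidyl transferase centre, was at 178 ± 15.3 with miR-125a-5p and 162 ± 14.2 with the control mimic. The values of these 3 genes did not overlap with one another in either group. The highest small subunit gene, MRPS10, was at 161 ± 10.5 with miR-125a-5p and 166 ± 5.46 with the control mimic. MRPS21 was at 149 ± 10.6 with miR-125a-5p and 156 ± 14.0 with the control mimic, and MRPS18A at 85.1 ± 10.6 with miR-125a-5p and 90.6 ± 8.59 with the control mimic. MRPS10 and MRPS21 were within their spread of each other, and both were above MRPS18A in every library.

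At the low end, MRPL23, a protein at the tunnel exit, was at 6.33 ± 0.600 with miR-125a-5p and 7.20 ± 2.32 with the control mimic. MRPL42 was at 9.25 ± 0.646 with miR-125a-5p and 7.90 ± 0.831 with the control mimic, and MRPL46 at 8.18 ± 0.438 with miR-125a-5p and 8.11 ± 1.16 with the control mimic. The 3 overlapped in control libraries, whereas in miR-125a-5p libraries MRPL23 lay below the others. Per exon length the lowest small subunit gene, MRPS33, was at 10.27 ± 2.11 with miR-125a-5p and 11.5 ± 0.505 with the control mimic. MRPS18C followed at 14.4 ± 2.08 with miR-125a-5p and 15.8 ± 3.49 with the control mimic, and MRPS11, which lines the path of the messenger RNA, at 15.6 ± 1.99 with miR-125a-5p and 16.1 ± 2.34 with the control mimic. MRPS18C and MRPS11 did not differ beyond their spread. The highest of all members was 37.4 times the lowest in control libraries.

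The order depends on the length used. MRPL42 ranked 48 of 49 large subunit genes per exon length and 13 per coding length. Its exon length is 16393 bases because of long annotated 3′ ends. MRPL23 and MRPL46 stayed low, at 46 and 40 per coding length. Of the 28 small subunit genes, MRPS33, MRPS18C and MRPS11 ranked 28, 27 and 26 per exon length, but 9, 10 and 13 per coding length. MRPS18A ranked 3 per exon length and 14 per coding length. Per coding length MRPS21 was the highest member in control libraries, at 245 against 171 for MRPL18. The ranks by the 2 lengths had a Spearman rho of 0.66 across the 77 genes, which are not independent and share libraries. The median large subunit gene was at 0.908 times the median small subunit gene per exon length, with libraries from 0.770 to 1.12, and at 0.739 times per coding length, with libraries from 0.657 to 0.857. Per exon length, only control library 1 had the large subunit median above the small, at 36.0 against 32.1. The biological coefficient of variation, edgeR's estimate of the spread between replicate libraries beyond counting, was 8.22% in MRPL37 and 23.2% in MRPL41. It was lower in members with a higher mean level (Spearman rho -0.94 over 77 genes, a description only). edgeR draws each gene's estimate toward a trend fitted on mean level, so this rho partly restates that trend.

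**Figure D4:**
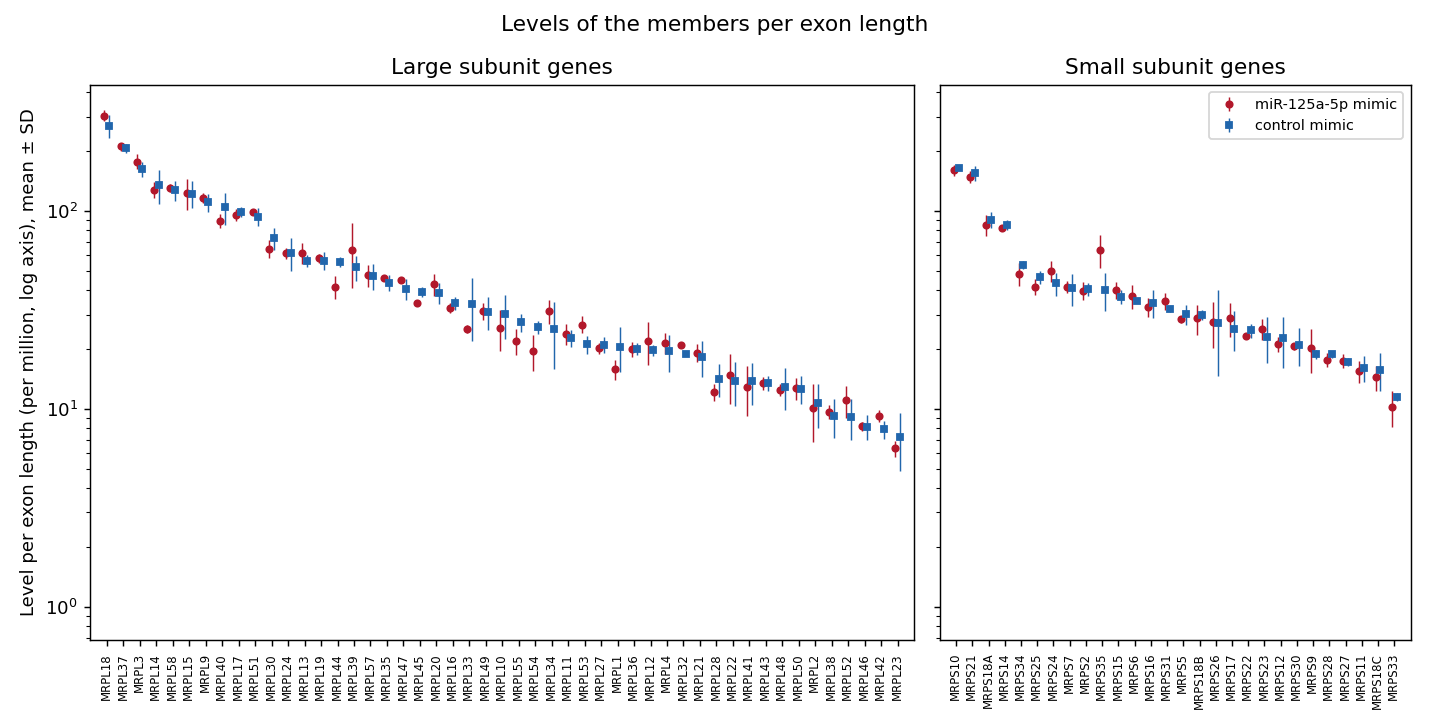
Level per exon length of each member, mean ± SD of 3 libraries, on a log axis, with miR-125a-5p (circles) left of control (squares) and genes ordered by the control mean. The order spans 37.4-fold in control libraries, and the groups lie close together apart from genes such as MRPS35 and MRPL44.

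Genes of the mitochondrial ribosome lie on 21 chromosomes. RefSeq promoters, 250 bases before to 50 after a start, were available for 69 members. The 3 motifs of factors known for nuclear genes of mitochondrial function were each searched on both strands. A match of ETS and one of YY1 can share the letters AAG, and each was then counted. The ETS motif CCGGAAG, the core bound by GABP, was in 30 of 69 members (43.5%) against 16.5% of 15843 protein-coding genes. The YY1 motif AAGATGGC was in 21 (30.4%) against 4.66%, and the NRF1 motif GCATGCGC in 6 (8.70%) against 4.89%. At least 1 motif was in 44 members (63.8%) against 23.4%, and at least 2 in 12 members (17.4%) against 2.54%. The subunits were alike, with the ETS motif in 42.9% of large and 44.4% of small subunit genes and the YY1 motif in 31.0% and 29.6%. Promoter GC content had a median of 60.0% in members and 62.3% in all protein-coding genes, so the members' promoters were not richer in GC. A match describes the letters only. The 15843 genes include genes with too few counts to be tested here, whereas all members were tested. Shares among tested genes alone were not computed, so these gaps are not set against genes expressed in these cells.

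**Figure D5:**
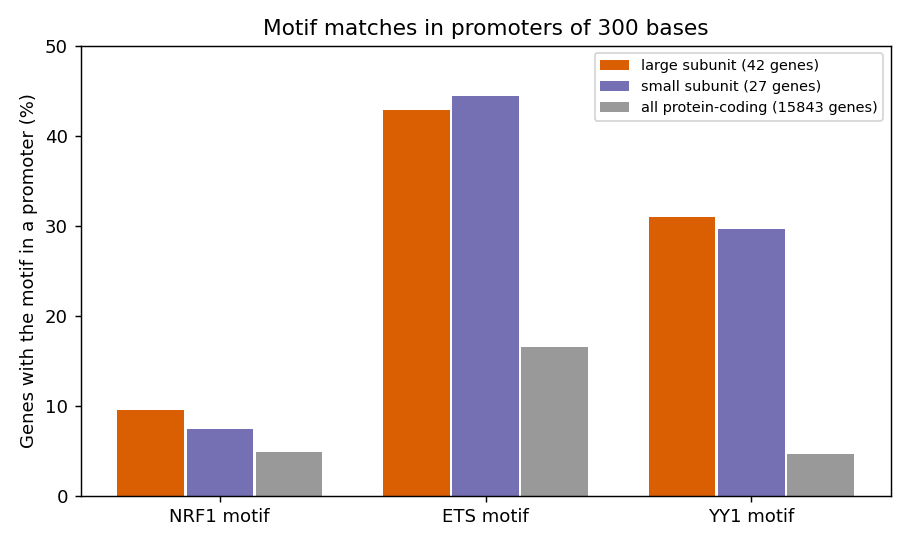
Share of genes with each motif in a promoter of 300 bases, for 42 large subunit genes, 27 small subunit genes and 15843 protein-coding genes. Both subunits are at 42.9% to 44.4% for the ETS motif and 29.6% to 31.0% for the YY1 motif, against 16.5% and 4.66% of all protein-coding genes.

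A pair of promoters shows how the motifs are placed. MRPL52 (chr14:22829637-22829936, plus strand) is shown because it holds all 3 motifs, and MRPS12 (chr19:38930694-38930993, plus strand) because its start lies close to that of the gene of a mitochondrial aminoacyl-tRNA synthetase. Both are on GRCh38.p14, and capitals mark the matches on either strand.
MRPL52: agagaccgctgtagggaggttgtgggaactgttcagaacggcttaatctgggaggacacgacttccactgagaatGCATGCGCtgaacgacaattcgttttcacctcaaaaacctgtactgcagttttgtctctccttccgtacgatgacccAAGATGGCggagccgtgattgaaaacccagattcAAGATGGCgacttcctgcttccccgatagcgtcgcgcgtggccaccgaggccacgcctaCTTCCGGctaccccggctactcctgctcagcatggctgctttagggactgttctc
MRPS12: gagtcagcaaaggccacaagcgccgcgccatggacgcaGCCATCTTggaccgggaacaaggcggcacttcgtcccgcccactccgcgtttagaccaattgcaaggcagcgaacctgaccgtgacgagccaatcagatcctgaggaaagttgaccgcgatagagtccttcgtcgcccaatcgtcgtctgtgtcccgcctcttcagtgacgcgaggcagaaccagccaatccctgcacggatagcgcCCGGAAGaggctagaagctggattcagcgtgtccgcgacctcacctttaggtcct

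In MRPL52 the NRF1 motif begins at base 76, the YY1 motif at bases 153 and 187, and the ETS motif, on the opposite strand, at base 246. In MRPS12 a YY1 motif on the opposite strand begins at base 39 and an ETS motif at base 246. The start of MRPS12 is 181 bases from that of SARS2, which runs the other way and encodes the mitochondrial seryl-tRNA synthetase. Such head-to-head starts within 1000 bases were found for 21 of 69 members (30.4%), against 12.8% of the same 15843 protein-coding genes, tested or not. In 1 pair both genes are members, MRPL46 and MRPS11, 320 bases apart. Their levels were 14.1 ± 0.846 and 23.5 ± 2.93 CPM with miR-125a-5p, against 14.0 ± 1.68 and 24.2 ± 2.74 CPM with the control mimic (SD, n = 3 each). Other partners include FAU with MRPL49, PTCD2 with MRPS27, TCP1 with MRPL18 and PSMA2 with MRPL32.

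The other lists of the mitochondrial translation system had 0 calls in edgeR's quasi-likelihood test, DESeq2, limma voom and the likelihood ratio test. At an unadjusted p under 0.05 there were 2 of 26 ribosome assembly genes (7.69%) and 2 of 22 aminoacyl-tRNA synthetases and related enzymes (9.09%), against 5.92% of all tested genes, and 0 in the other lists of this system. The 5 mitoribosomal proteins with other names, DAP3, PTCD3, AURKAIP1, CHCHD1 and GADD45GIP1, had log2 fold changes from -0.10 to 0.082. DAP3, a GTP-binding small subunit protein, had 67.8, 75.6 and 64.7 CPM with miR-125a-5p and 72.2, 63.9 and 60.4 CPM with the control mimic. Medians were -0.014 over 26 ribosome assembly genes, -0.016 over 15 translation factors and 0.0072 over 22 aminoacyl-tRNA synthetases and related enzymes. The 6 transcription genes had a median of 0.147, and the 8 regulators, which include NRF1, GABPA and YY1, had a median of 0.028. The 80 tested cytosolic ribosomal protein genes had a median of 0.0015, with 2 (2.5%) at an unadjusted p under 0.05.

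Of the assembly genes, the one with the smallest p was YBEY, an endoribonuclease for ribosomal RNA, with 4.35, 3.59 and 2.75 CPM with miR-125a-5p and 1.57, 1.54 and 1.99 CPM with the control mimic. Its groups did not overlap at this low level, and the adjusted p was 0.721. Over all tested genes 11.2% had groups that did not overlap. That share was not counted for the related lists. FASTKD2, an RNA-binding protein of the large subunit's assembly, averaged 33.1 ± 1.40 CPM with miR-125a-5p and 26.8 ± 1.85 CPM with the control mimic, with an adjusted p of 0.801. The groups of FASTKD2 did not overlap either. MARS2, the mitochondrial methionyl-tRNA synthetase, had 28.1, 69.3 and 28.9 CPM with miR-125a-5p and 34.1, 22.5 and 20.5 CPM with the control mimic, so that 1 library set its mean. RARS2, the arginyl enzyme, was at 51.4, 44.5 and 43.5 CPM with miR-125a-5p and 59.8, 51.7 and 55.9 CPM with the control mimic, and missed the threshold with an adjusted p of 0.814. The groups of RARS2 were narrowly apart, and those of MARS2 overlapped. Of the translation factors, LRPPRC, an RNA-binding protein that stabilises mitochondrial messenger RNAs, averaged 253 ± 29.6 CPM with miR-125a-5p and 222 ± 8.18 CPM with the control mimic, and MTRFR, a ribosome rescue factor, 15.8 ± 1.42 CPM with miR-125a-5p and 19.7 ± 1.28 CPM with the control mimic. The groups overlapped for LRPPRC and not for MTRFR, at adjusted p of 0.855 and 0.857.

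In the transcription list, TFB2M, an initiation factor, had 24.8, 23.0 and 34.5 CPM with miR-125a-5p and 24.1, 23.1 and 22.2 CPM with the control mimic, so 1 library was high. TFAM, which packages mitochondrial DNA and starts its transcription, averaged 22.4 ± 1.26 CPM with miR-125a-5p and 19.5 ± 1.41 CPM with the control mimic. GABPA, the DNA-binding subunit of GABP, averaged 42.1 ± 0.691 CPM with miR-125a-5p and 37.6 ± 3.05 CPM with the control mimic. The groups of TFAM and of GABPA did not overlap, as in 11.2% of all tested genes, at adjusted p of 0.919 and 0.913. GABPB1, its partner subunit, averaged 38.1 ± 3.93 CPM with miR-125a-5p and 35.1 ± 0.135 CPM with the control mimic. The 2 cytosolic ribosomal protein genes of smallest p were RPLP0, at 336 ± 42.3 CPM with miR-125a-5p and 291 ± 5.74 CPM with the control mimic, and RPL15, at 722 ± 13.5 CPM with miR-125a-5p and 636 ± 53.4 CPM with the control mimic. Both had an adjusted p of 0.833, and their groups did not overlap (SD, n = 3 for each mean).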

How the data were processed

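Total RNA of 6 libraries was sequenced, per the labels. The single table the authors deposited holds counts per gene as whole numbers, not normalized. The submitters' processing notes name TopHat, bcl2fastq and edgeR and the build hg19. The sources used here give no counter, annotation or strand setting. Reads from antisense or overlapping genes, or from copies of nearly the same sequence, may therefore be mixed in a gene's count. All columns matched a library, and 0 belonged to none. NCBI gene identifiers matched a RefSeq gene table (GRCh38.p14) for 26204 rows (99.5%).

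The test was edgeR 4.0.16 under R 4.3.3 (filterByExpr, trimmed mean of M-values, glmQLFit, glmQLFTest, no covariate), with p adjusted by Benjamini-Hochberg over 14731 genes. The SE is the log2 fold change divided by the square root of F. The steps were tested on simulated data with planted changes larger than that of any member. Recovery of changes as small as the members' was not tested. The chi-square statistic per gene between libraries was 4.00 to 13.5, so no library was a repeat of another. Same-numbered libraries did not deviate together (r of 0.056, 0.014 and -0.016), and the numbers were not taken as pairs.

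Lengths and 3′ UTRs (at least 20 bases) came from GENCODE 29 (GRCh38), not the build of the counts. Promoters and the microRNA came from RefSeq tables. Protein sequences were not used here. Members and lists were chosen with earlier results of these data known, so no list has a test of its own. The text names the 5 members of smallest p in each direction, those whose groups do not overlap, the 3 highest and 3 lowest per length in each subunit, those with a seed site of at least 7 bases, MRPS18A, MRPS18B, MRPS18C, MRPS12, MRPL12 and MRPL58, and the 2 genes of smallest p in each related list. DAP3 to GADD45GIP1 are named as a whole list. Genes named only for a promoter, a pseudogene or a coefficient of variation, and NRF1 and YY1, were chosen after their values were seen. Alternatives were other scaling factors, no count filter, DESeq2 1.42.0, limma 3.58.1 voom, the likelihood ratio test, a replicate block, each library left out, other thresholds, coding length, the shortest 3′ UTR and the first listed promoter.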

Additional observations from a re-analysis of the deposited data

How the results depend on the processing

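The count of called genes over the whole table was 4, against 52 without a count filter, 13 with DESeq2, 21 with the likelihood ratio test, 9 with the replicate block and 7 at an adjusted p under 0.10. It ranged from 3 to 14 with 1 library left out at a time. Members called were 1 without a count filter (MRPS35) and 2 at an unadjusted p under 0.05, and related-list genes called were 1 without the filter (MARS2). Members called were 0 in the other settings, the replicate block included, where the smallest adjusted p of a member was 0.107. With 1 library left out, the small subunit median ranged from -0.068 to 0.044, the large subunit median from -0.0090 to 0.045, the median of all members from -0.036 to 0.045, the large minus small difference from 0.0010 to 0.085 and the log2 ratio of summed CPM from -0.024 to 0.081. The large to small ratio of median levels per length was 0.739 by coding length, and seed sites of at least 7 bases numbered 1 in the shortest 3′ UTRs.

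For the 32 named members, 14 settings gave 448 log2 fold changes, of which 422 kept their direction and side of the threshold, 25 changed sign and 1 passed the threshold (MRPS35). Except for MRPL43 under upper-quartile factors (0.0053), the changes of sign came with 1 library left out. The ranges were -0.46 to 0.0097 (MRPL10), -0.021 to 0.14 (MRPL11), -0.090 to 0.33 (MRPL22), -0.0014 to 0.059 (MRPL37), -0.061 to 0.048 (MRPL43), -0.041 to 0.12 (MRPL46), -0.041 to 0.17 (MRPL58), -0.096 to 0.0096 (MRPS10), -0.13 to 0.051 (MRPS11), -0.27 to 0.20 (MRPS12), -0.14 to 0.018 (MRPS18A), -0.18 to 0.081 (MRPS18B), -0.27 to 0.094 (MRPS18C) and -0.13 to 0.047 (MRPS21). The alternatives on coding length and on shared 25-base runs, and those on MRPS18A and MRPS30, on the first listed promoter and on the seed-site members with a library left out, were chosen after seeing the data, and the planned protein-based ones were not run. The causes of these shifts were not tested. With 3 libraries per group and a median SE of 0.163 for members, a difference of the size seen in most of them was not detectable.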

Other observations

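Of the 8 rows with an MRPL or MRPS symbol that do not code for protein, MRPL20-AS1 had the most counts, 209, 208 and 216 in miR-125a-5p libraries and 221, 247 and 202 in control libraries. MRPL42P5, a transcribed pseudogene, had 9, 8 and 10 counts in miR-125a-5p libraries and 19, 19 and 20 in control libraries. MRPL23-AS1 had 0 counts in each miR-125a-5p library and 0, 2 and 0 in control libraries. These counts are not scaled for depth, and how reads were shared between a gene, its antisense transcript and its copies is not given in the sources used here.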
